A study of Mus musculus with 12 samples.

Results

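The response of regulatory T cells (Treg) to T cell receptor stimulation was compared between cells with and without Ikaros. Of the 12 RNA-seq libraries of the study, the 6 libraries of stimulated Treg form this comparison, 3 from wild-type (WT) cells and 3 from Ikzf1 conditional knockout (cKO) cells, and they were chosen by their treatment label alone. The remaining 6 libraries, 3 WT and 3 cKO, are of Treg taken directly ex vivo and serve as the background before stimulation. All animals carried a Cre recombinase with a yellow fluorescent protein (YFP) under the control of Foxp3, so that only cells that switch on Foxp3 delete the floxed Ikzf1 gene, and the cKO animals in addition carried the floxed Ikzf1 alleles, on a B6 background. The deletion in each cell starts when Foxp3 is first made, and other T cells of these animals keep Ikaros. CD4+ T cells of individual mice were sorted for YFP. The labels give spleen as the tissue, and the study's general purification methods name lymph nodes too. After sorting, the stimulated cells were held for 4 h on plate-bound antibodies to CD3 and to CD28, each at 1 µg/ml. The paper gives an age for the mice of the ex vivo cells, which were age-matched between genotypes. None is given separately for the mice behind the stimulated cells in the sources used here. YFP marks cells in which the Foxp3 promoter is active, so a library can hold both naive (central) and effector Treg. In such bulk RNA a smaller number of cells of a type and less RNA per cell cannot be told apart.

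Ikaros, the zinc finger protein encoded by Ikzf1, is a lymphocyte transcription factor that can recruit chromatin remodelling and deacetylase complexes and is known both as a repressor and as an activator. Treg are CD4+ T cells that restrain immune responses. At rest many of them resemble naive T cells, with TCF1 and LEF1 and the lymph node homing receptors CCR7 and S1P1, and after activation they turn to an effector program with BLIMP1, IRF4, ICOS and tissue homing receptors. Interferon-gamma, a cytokine of effector T cells, signals through JAK kinases and STAT factors to induce transcription factors of the IRF family and the guanylate-binding and immunity-related GTPases, which attack intracellular pathogens, and SOCS1 closes this loop as a feedback inhibitor.

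The stimulated libraries held 10045424 to 13440658 gene-assigned reads in WT and 8208659 to 10930376 in cKO. Values are given as scaled TPM, that is, the deposited TPM (a length-scaled share of transcripts) divided by a factor for each library that was set on the 13318 genes whose mean reached 5 TPM in at least 1 of the 4 groups. This scaling matters because a single gene model of chromosome 2, Gm10800, held 32.6 to 44.4% of all TPM in the WT libraries and 42.9 to 55.9% in the cKO libraries. The library labelled cKO stimulated 3 stood apart. Its rank correlation with each of the other 5 libraries was 0.81 to 0.854, that of WT with WT libraries 0.919 to 0.93. That of cKO stimulated 1 with cKO stimulated 2 was 0.893, and that of these libraries with WT libraries 0.863 to 0.897. The library cKO stimulated 3 also had the fewest reads, the highest Gm10800 share and the highest level of 1716 olfactory and vomeronasal receptor genes (median 1.44 scaled TPM, against 0.729 to 0.912 in WT and 0.857 and 1.09 in the other cKO libraries). These receptor genes are silent in T cells, so their level marks the background. Results are therefore also given without that library.

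The labelled cell type was checked against its markers. All 7 T cell markers and all 6 Treg markers passed the filter, with summed levels of 1328 to 1490 scaled TPM in WT and 953 to 1193 in cKO for the T cell markers and of 799 to 829.8 in WT and 884 to 1269 in cKO for the Treg markers. The 10 B cell markers summed to 112 to 128 scaled TPM in WT and 123 to 131 in cKO, and Cd79b was higher in cKO by 0.96 (SE 0.23 at an adjusted p of 0.0283), a call lost without cKO stimulated 3 and also without cKO stimulated 1, WT stimulated 1 or WT stimulated 2. Summed levels of 10 CD8 T and NK cell markers were 28.5 to 32.5 in WT and 32.2 to 41.4 in cKO, those of 13 myeloid markers 28.2 to 33.1 and 30.02 to 47.3, and those of 10 erythroid and platelet markers 14.5 to 17.1 and 15.2 to 29, the highest value of each being that of cKO stimulated 3. Hba-a2 had 0 reads in all 6 libraries. The part of other cell types in the results below was not tested.

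Ikzf1 (ENSMUSG00000018654, mm9 chromosome 11, 11585006 to 11672929) was the check of the labels. It stood at 66.7, 71.1 and 68.9 scaled TPM in WT and at 29.96, 30.1 and 23.3 in cKO, so that the groups were far apart. On the scale used for all tests below, log2(scaled TPM + 1), it fell by 1.29 (SE 0.11 at an adjusted p of 0.000161). The other 4 genes of the family, Ikzf2 to Ikzf5, were not called, with differences of -0.13 to 0.29, but Ikzf3 and Ikzf4, named after their values were seen, were called higher without cKO stimulated 3.

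Of the 13318 genes 923 were called between stimulated cKO and WT cells at an adjusted p under 0.05 (limma, Benjamini-Hochberg adjustment over all genes), which is 6.93%. Of these, 439 were higher in cKO (3.3%) and 484 lower (3.63%), and the median difference of all genes was -0.03. The 880 genes that passed the filter only through the stimulated cKO group held 47 of the higher calls and 0 lower, and the 641 that passed only through the stimulated WT group held 0 higher and 2 lower. Differences over 2-fold were seen for 193 of the called genes, 150 higher and 43 lower. In all 923 genes the 3 cKO libraries lay on 1 side of the 3 WT libraries, which was also the case for 1711 genes higher and 2394 genes lower in cKO among all those tested. The count depended on the processing. A filter of 1 TPM, with the library factors set anew on the genes that passed it, gave 68 calls and moved the median difference of the 13318 genes to -0.31. The same filter with the factors as reported, chosen after seeing the data, gave 600. Below, the 1 TPM filter is the former and the reported scaling the latter. With the TPM as deposited (median -0.30) the calls were 306 genes, 22.6% of them higher instead of 47.6%, and without cKO stimulated 3 605 genes, 67.1% of them higher. The count was 424 without WT stimulated 2, the fewest for any library left out, and 348 of the 923 calls held in each of the 12 fits that left out 1 library. It was also 573 without WT stimulated 1, 452 without WT stimulated 3 and 438 without cKO stimulated 1.

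**Figure D1:**
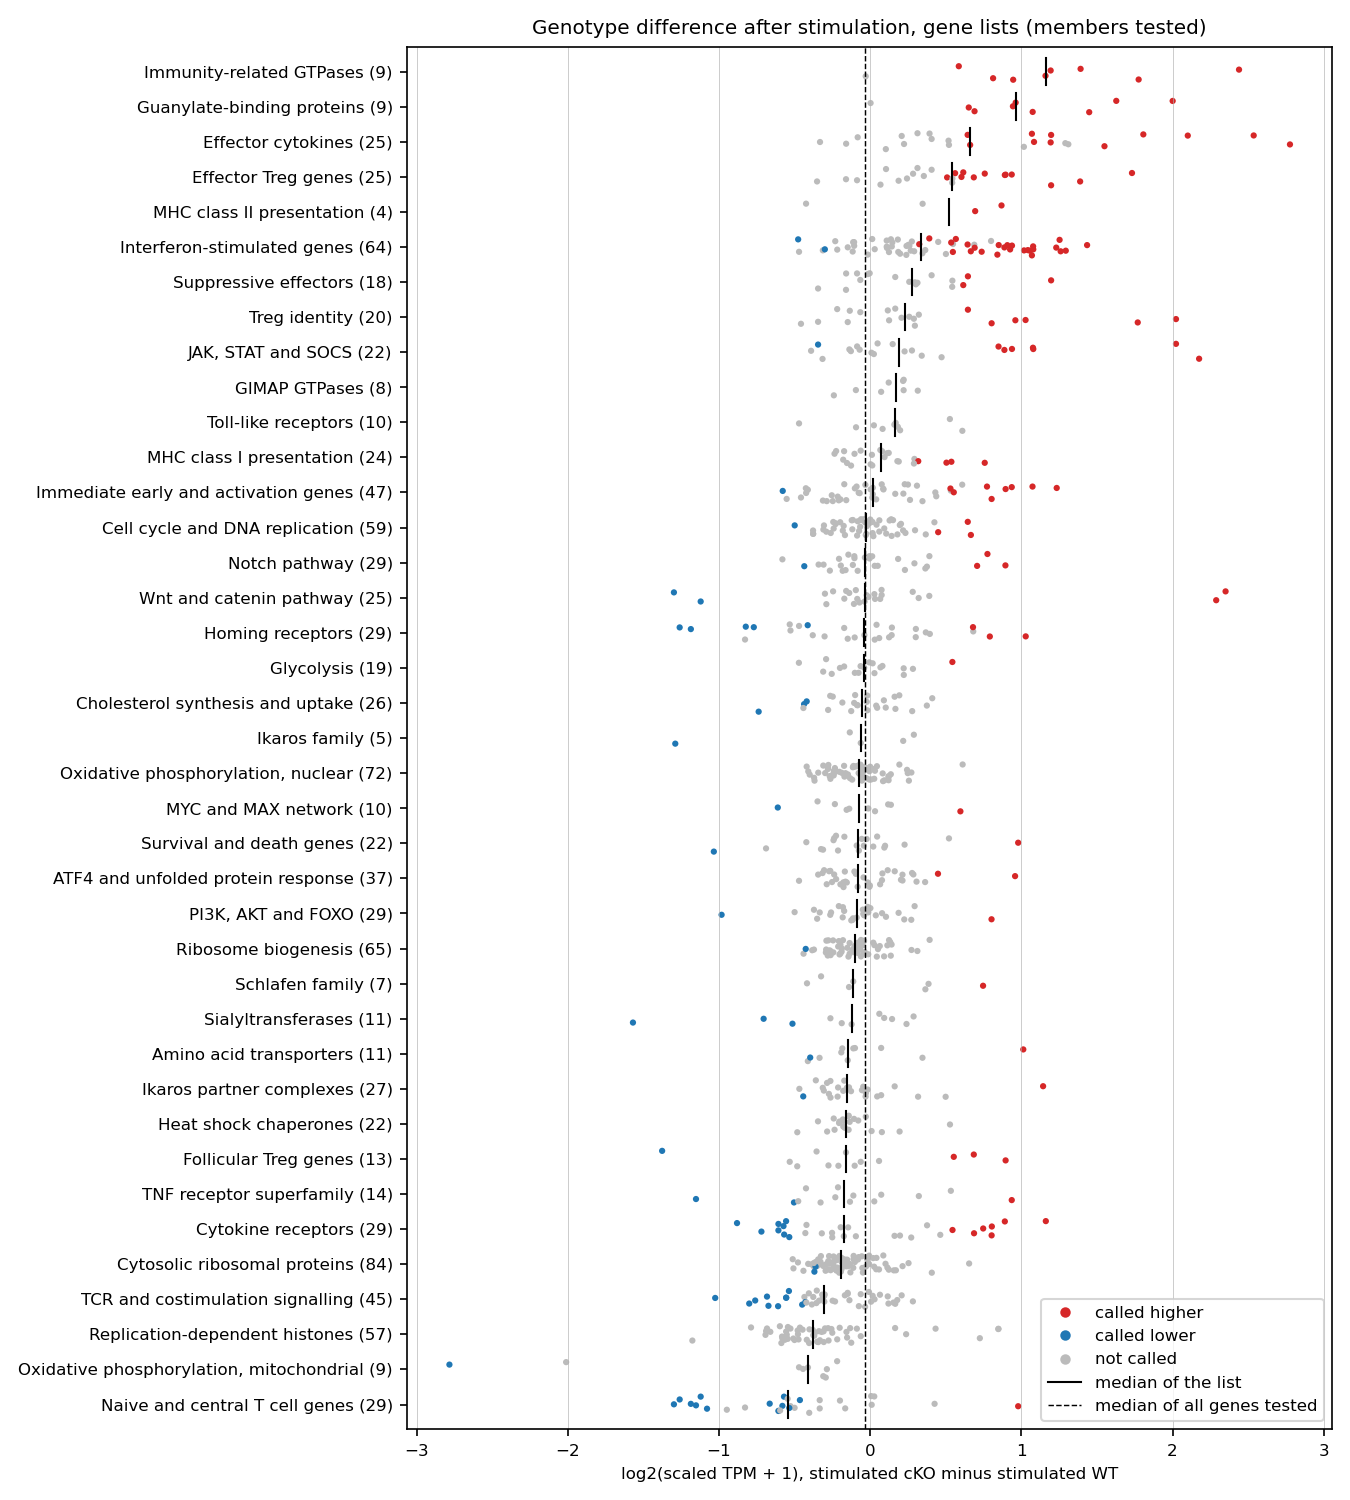
Difference between stimulated cKO and stimulated WT Treg (x axis, log2 of scaled TPM + 1) of the members of each gene list with at least 4 members tested; each point is 1 gene, red if called higher, blue if called lower and grey if not called, the black bar is the list's median and the dashed line the median of all genes. The GTPase families lie at the top, with medians of 1.16 and 0.96, and the naive and central T cell genes at the bottom, with a median of -0.55.

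Members of the interferon-inducible GTPase families rose together. Guanylate-binding proteins (GBPs) coat and open the vacuoles of intracellular pathogens, and immunity-related GTPases (IRGs) act with them. Of 11 GBP genes 9 passed the filter, and 8 rose and none fell, against 3.3% of all genes higher. Of 10 IRG genes 9 passed, and again 8 rose. The medians were 0.96 and 1.16.

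Gbp2 (ENSMUSG00000028270, mm9 chromosome 3, 142283566 to 142300972) stood at 84.5, 47.8 and 96.2 scaled TPM in stimulated WT cells and at 324, 294 and 270.1 in stimulated cKO cells. Every cKO library was far above the highest WT library, and WT stimulated 2 was the lowest. Gbp2 rose by 2.00 (SE 0.22 at an adjusted p of 0.000397). Its neighbour Gbp5, a GBP tied to inflammasome assembly, was at 31.5, 21.8 and 31.8 in WT and at 95.1, 93.1 and 78.5 in cKO and rose by 1.63 (SE 0.15 at an adjusted p of 0.000218). Gbp3 rose by 0.65 (SE 0.11 at an adjusted p of 0.00527), the smallest rise of the family. Within the cluster on chromosome 5, Gbp6 was at 11.6, 7.34 and 11.5 in WT and at 30.8, 29.2 and 26.8 in cKO and rose by 1.45 (SE 0.15 at an adjusted p of 0.000356). Gbp4 rose by 0.94 (SE 0.17 at an adjusted p of 0.00730) and Gbp10 by 1.07 (SE 0.18 at an adjusted p of 0.00497). The remaining members were named after their values were seen. Gbp7 and Gbp8 rose by 0.96 and 0.69. Gbp9 was the 1 GBP tested that was not called. It stood at 22.6, 19.7 and 23.1 in WT and at 22.4, 19.96 and 23.1 in cKO, values that overlap throughout.

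Among the IRGs, Iigp1 (ENSMUSG00000054072, mm9 chromosome 18, 60535683 to 60552281), an effector that loads onto pathogen vacuoles, stood at 33.9, 22.6 and 39.1 scaled TPM in WT and at 180.0, 192 and 150.5 in cKO. It rose by 2.44 (SE 0.20 at an adjusted p of 0.000112), and no cKO library came near the WT range. Igtp (ENSMUSG00000078853, mm9 chromosome 11, 58013058 to 58021093), also known as Irgm3 and 1 of 3 regulatory members that keep the effectors inactive on the cell's own membranes, was at 111, 73.00 and 118 in WT and at 265, 284 and 235 in cKO and rose by 1.39 (SE 0.16 at an adjusted p of 0.000648). The other regulators Irgm1 and Irgm2 rose by 1.19 (SE 0.19 at an adjusted p of 0.00441) and 0.59 (SE 0.13 at an adjusted p of 0.0201). Gm12250, an effector member, was at 19.9, 11.2 and 19.6 in WT and at 57.3, 62.7 and 55.6 in cKO, a rise by 1.78 (SE 0.21 at an adjusted p of 0.000708). Tgtp1 rose by 1.16 (SE 0.15 at an adjusted p of 0.00147). Tgtp2 and Ifi47, named after their values were seen, rose by 0.81 and 0.95, and Irgq, named likewise, differed by -0.03 (SE 0.09 at an adjusted p of 0.868). Tgtp1 and Tgtp2 are near-identical copies, and several GBPs are close paralogs, so that reads may have been divided between copies in ways the tables do not show. Ifi47 overlaps Olfr56 and Tgtp1 overlaps Gm12185 on the same strand.

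Without cKO stimulated 3 the counts stayed at 8 GBPs and 8 IRGs, with medians of 1.05 and 1.2. They held at 8 GBPs in every fit that left out 1 library, and at 6 to 8 IRGs, and came to 6 GBPs and 5 IRGs with only the 6 stimulated libraries. With the 1 TPM filter 1 GBP and 2 IRGs were called, or 8 and 8 at the reported scaling, and with the TPM as deposited 3 GBPs and 2 IRGs.

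**Figure D2:**
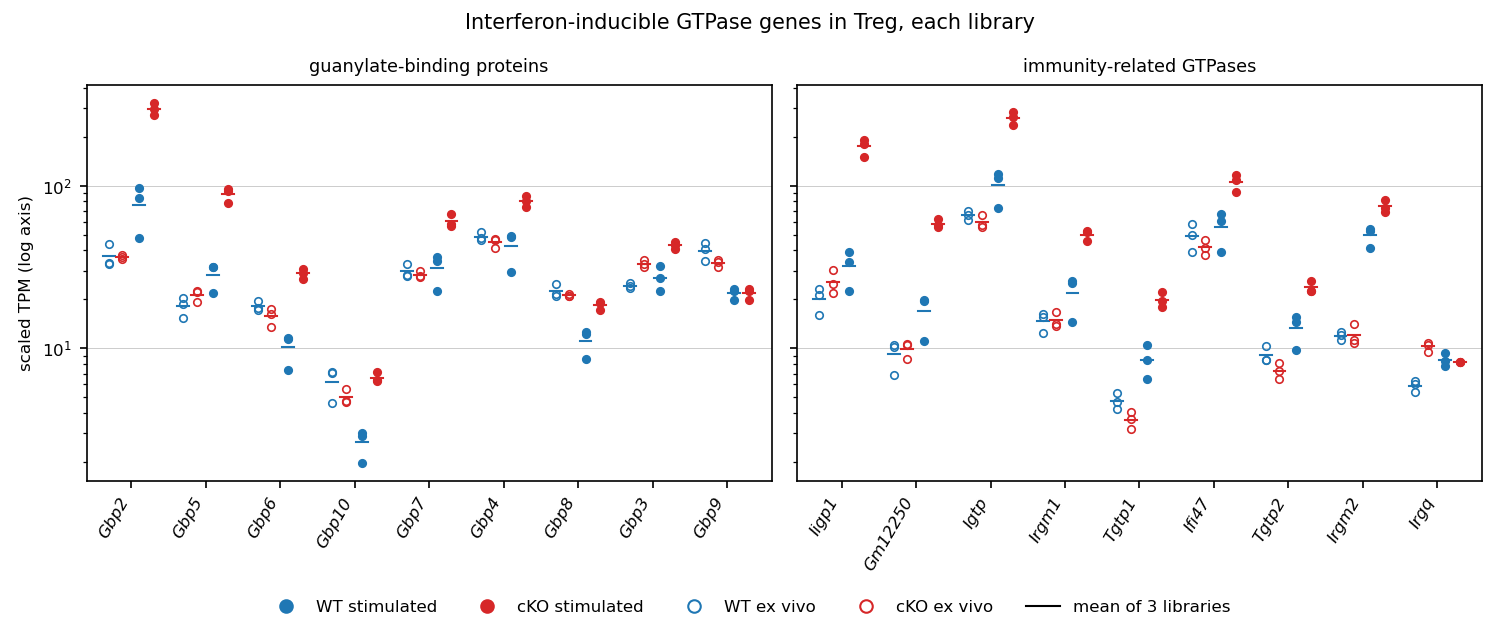
Scaled TPM (log axis) of the 9 guanylate-binding protein genes and the 9 immunity-related GTPase genes tested, in each of the 12 libraries; filled points are stimulated and open points ex vivo, blue is WT and red is cKO, and bars are means of 3 libraries. In 16 of the 18 genes all filled red points lie above all filled blue points, while the open points of most genes lie side by side.

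Because the GTPase genes rose together, their promoters are shown. The sequences are the 120 bases before the annotated start of each gene, read 5′ to 3′ on the gene's strand and taken from the RefSeq promoter table of build GRCm38.p6, not the mm9 build of the expression files. Capitals mark 2 sets of letters searched on both strands: GAAANNGAA, the core of the interferon-stimulated response element (ISRE), which IRF factors, IRF9 among them, bind, and TTCNNNGAA, the core of the gamma-activated site (GAS), which dimers of STAT factors bind. A match on the opposite strand appears as its reverse complement. The windows are Gbp2 at chr3:142620543-142620662 on the plus strand, Igtp at chr11:58199436-58199555 on the plus strand, Irgm2 at chr11:58214857-58214976 on the plus strand, Tgtp2 at chr11:49064213-49064332 on the minus strand, Gm12250 at chr11:58183723-58183842 on the plus strand, and Socs1, the feedback inhibitor described below, at chr16:10785537-10785656 on the minus strand.
Gbp2: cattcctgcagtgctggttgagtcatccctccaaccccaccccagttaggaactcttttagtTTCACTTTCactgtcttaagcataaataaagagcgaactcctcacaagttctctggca
Igtp: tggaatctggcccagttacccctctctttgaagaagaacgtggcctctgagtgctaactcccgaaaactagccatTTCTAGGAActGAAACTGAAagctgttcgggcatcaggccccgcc
Irgm2: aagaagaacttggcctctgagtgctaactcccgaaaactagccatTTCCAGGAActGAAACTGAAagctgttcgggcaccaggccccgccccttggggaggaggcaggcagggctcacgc
Tgtp2: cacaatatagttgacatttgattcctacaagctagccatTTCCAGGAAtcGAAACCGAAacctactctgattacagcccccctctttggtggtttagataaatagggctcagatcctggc
Gm12250: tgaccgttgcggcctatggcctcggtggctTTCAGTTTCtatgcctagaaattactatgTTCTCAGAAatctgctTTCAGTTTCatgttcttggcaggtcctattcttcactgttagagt
Socs1: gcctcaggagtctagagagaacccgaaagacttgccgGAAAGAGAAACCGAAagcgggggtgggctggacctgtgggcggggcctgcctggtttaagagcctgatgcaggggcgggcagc

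In Igtp, Irgm2 and Tgtp2, and in Tgtp1, which is not shown, a GAS core began 11 bases before an ISRE core, and the GAS core began 45 (Igtp), 75 (Irgm2), 81 (Tgtp2) and 88 (Tgtp1) bases before the start. Gm12250 held both cores 16 bases apart and a second ISRE core further away. Gbp2 held 1 ISRE core 58 bases before the start, and Socs1 held 2 ISRE cores that overlap, beginning 83 and 77 bases before the start. Over the full windows of 300 bases (250 before to 50 after the start), all 4 called GBP genes and 6 of the 7 called IRG genes that the table holds had an ISRE core, and 2 and 5 had a GAS core as well. An ISRE core was present in 9.76% of the 27025 genes with a promoter there and a GAS core in 9.55%. The 272 genes called higher with a promoter in the table had an ISRE core in 17.3% and a GAS core in 14%, the 306 called lower in 7.52% and 10.5%, and the 7061 tested genes in 8.64% and 8.45%. A match of letters describes the sequence only and says nothing of binding in these cells.

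Outside these families interferon-stimulated genes were divided. Of 64 tested members, 26 rose, 2 fell and 36 were not called, against 3.3% of all genes higher and 3.63% lower, with a median of 0.34. The largest rises were in Ube2l6, the conjugating enzyme for ISG15, by 1.44 (SE 0.12 at an adjusted p of 0.000112), in the transcription factor Irf8 by 1.29 (SE 0.16 at an adjusted p of 0.00105), in the RNA helicase Mov10 by 1.26 (SE 0.12 at an adjusted p of 0.000200) and in the ADP-ribosyltransferase Parp12 by 1.25 (SE 0.14 at an adjusted p of 0.000557). Irf8 stood at 9.52, 6.47 and 9.30 scaled TPM in WT and at 27.8, 20.3 and 18.5 in cKO, and Mov10 at 18.8, 16.98 and 21.6 and 50.7, 52.04 and 39.3. Both were separate between the groups. Irf1, the interferon-gamma response factor that drives many of these genes, was at 62.7, 50.7 and 70.02 in WT and at 114, 113 and 103 in cKO and rose by 0.85 (SE 0.11 at an adjusted p of 0.00151). Irf7 rose by 0.67 (SE 0.17 at an adjusted p of 0.0447).

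Other members did not pass the threshold. Isg15, the ubiquitin-like modifier, was at 9.54, 10.5 and 7.84 scaled TPM in WT and at 6.61, 7.86 and 9.10 in cKO and differed by -0.22 (SE 0.22 at an adjusted p of 0.574). Ifit1 and Ifit3, which bind viral RNA, differed by 0.55 (SE 0.17 at an adjusted p of 0.0882) and 0.69 (SE 0.26 at an adjusted p of 0.143), and Irf9, a DNA-binding partner of STAT2, by 0.24 (SE 0.13 at an adjusted p of 0.285). Mx1, listed as well, was under the filter. The 2 members called lower were Shisa5, by 0.48, and Samd9l, by 0.30. An ISRE core lay in the promoters of 7 of the 18 called higher and of 17 of the 30 not called that the promoter table holds. Without cKO stimulated 3 25 members rose and none fell, and with the 1 TPM filter none was called, or 23 at the reported scaling.

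Ifng and several feedback inhibitors of cytokine signalling were higher as well. Ifng (ENSMUSG00000055170, mm9 chromosome 10, 117878103 to 117882948) stood at 4.59, 2.76 and 4.67 scaled TPM in stimulated WT cells and at 39.6, 24.1 and 21.8 in stimulated cKO cells, from 43, 31 and 58 and 344, 215 and 138 reads. The groups did not come near each other. Ifng rose by 2.54 (SE 0.26 at an adjusted p of 0.000325). Its receptor chains Ifngr1 and Ifngr2 differed by -0.15 (SE 0.15 at an adjusted p of 0.587) and -0.32 (SE 0.15 at an adjusted p of 0.235). Ifnar1, a chain of the type I interferon receptor, was at 46.7, 55.5 and 48.3 in WT and at 25.2, 33.9 and 31.5 in cKO and fell by 0.72 (SE 0.14 at an adjusted p of 0.0105), while the partner chain Ifnar2 differed by -0.09 (SE 0.11 at an adjusted p of 0.631).

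Of 22 JAK, STAT and SOCS genes 7 rose and 1 fell, against 3.3% and 3.63% of all genes, with a median of 0.19, and 5 were called with only the 6 stimulated libraries. None of the 4 kinases was called, with differences of -0.39 to 0.34. Stat2 (ENSMUSG00000040033, mm9 chromosome 10, 127707629 to 127729905), which serves type I interferon signalling, stood at 16.4, 14.7 and 18.7 scaled TPM in WT and at 32.9, 33.97 and 30.9 in cKO. It rose by 0.94 (SE 0.11 at an adjusted p of 0.000561), and no cKO library was within the WT range.

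Socs1 (ENSMUSG00000038037, mm9 chromosome 16, 10783901 to 10785629), the inhibitor of JAK kinases induced by interferon-gamma, stood at 61.3, 38.5 and 51.1 in WT and at 278, 239 and 176 in cKO and rose by 2.18 (SE 0.22 at an adjusted p of 0.000285). All cKO libraries were far above the WT range. Socs2, a Treg-associated inhibitor that responds to STAT5, was at 5.12, 4.16 and 5.17 in WT and at 26.6, 23.7 and 18.2 in cKO and rose by 2.02 (SE 0.15 at an adjusted p of 6.26e-05). Cish, the STAT5-induced inhibitor of IL-2 signalling, rose by 1.08 (SE 0.14 at an adjusted p of 0.00151), from 39.5 ± 0.569 to 85.6 ± 16.5 scaled TPM (SD, n = 3 each), and Usp18, which restrains the type I receptor, by 1.08 (SE 0.18 at an adjusted p of 0.00583). The 1 member called lower was Socs5, by 0.34. In the fit without cKO stimulated 3 10 members rose and 1 fell, and with the 1 TPM filter 1 rose, or 7 were called at the reported scaling.

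**Figure D3:**
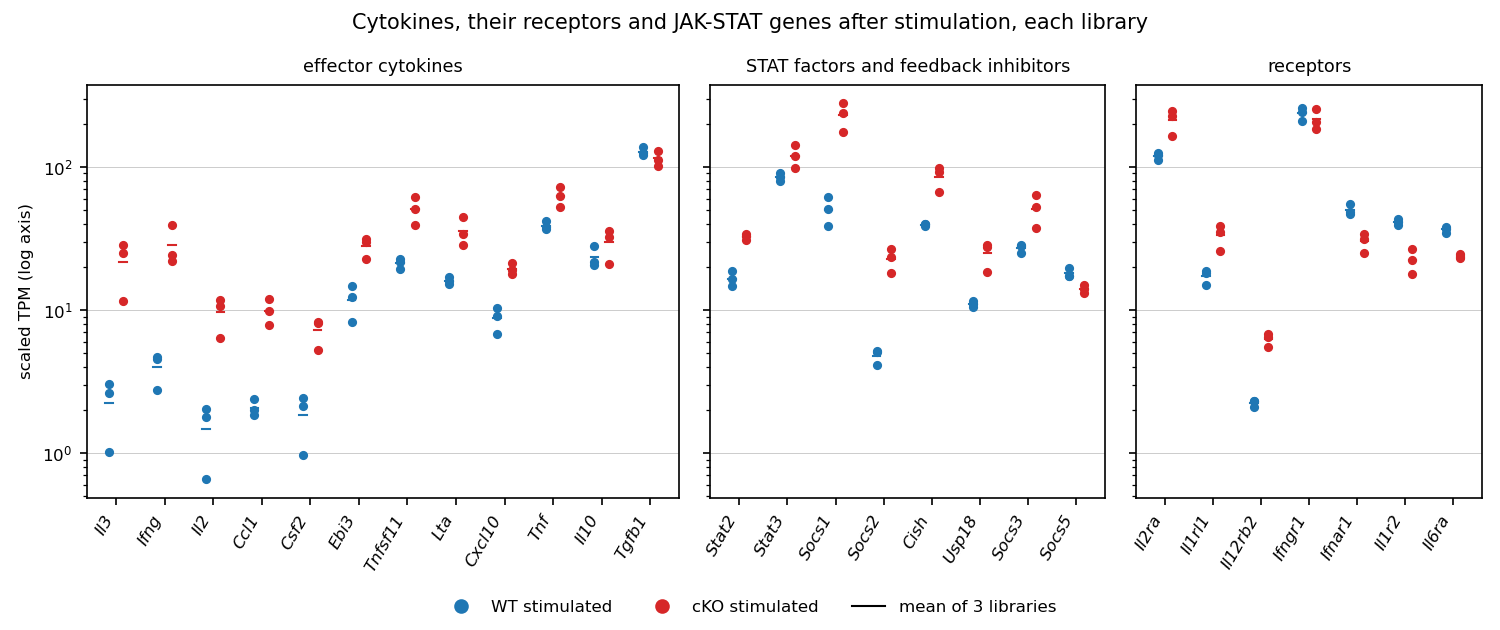
Scaled TPM (log axis) of effector cytokine genes, of STAT genes and feedback inhibitors, and of cytokine receptor genes in the 3 WT (blue) and 3 cKO (red) stimulated libraries; bars are means. Ifng and Socs1 are widely separated, Ifngr1 and Tgfb1 overlap, and in most genes that rose cKO stimulated 3 is the lowest of the cKO libraries.

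Many effector cytokine genes rose, and none was called lower. Of 34 listed genes 25 passed the filter and 11 rose, against 3.3% of all genes, with a median of 0.66. Since 7 of the 25 passed only through the stimulated cKO group, which had to favour a rise, the count is also given for the other 18, of which 7 rose, with a median of 0.46. The hematopoietic growth factors Il3, Il2 and Csf2 were among the 7 genes. Il3 was at 3.07, 1.02 and 2.62 scaled TPM in WT and at 24.9, 28.6 and 11.5 in cKO and rose by 2.78 (SE 0.39 at an adjusted p of 0.00212). Il2, the growth factor that Treg usually take up and do not make, was at 2.02, 0.657 and 1.78 and 11.8, 10.7 and 6.34, from 18, 7 and 21 and 97, 91 and 38 reads, and rose by 2.10 (SE 0.46 at an adjusted p of 0.0209). Csf2, which encodes GM-CSF, rose by 1.55 (SE 0.36 at an adjusted p of 0.0272).

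These 3 genes lay in WT at or near the level of background, since the 95th percentile of silent genes was 1.86 to 2.24 scaled TPM in the WT libraries and 2.16 to 3.49 in the cKO libraries. The chemokine Ccl1, which also passed the filter only through the stimulated cKO group, rose by 1.81 (SE 0.25 at an adjusted p of 0.00179). Tnf was well above background, at 36.8, 37.99 and 41.8 in WT and at 72.3, 62.9 and 52.3 in cKO, and rose by 0.66 (SE 0.14 at an adjusted p of 0.0160). Ebi3, the subunit that IL-27 and IL-35 share, rose by 1.20 (SE 0.19 at an adjusted p of 0.00345). Tnfsf11 (RANKL), Lta, Cxcl10 and Lif also rose, by 1.19, 1.08, 1.07 and 0.64, and were named after their values were seen. The suppressive cytokine genes Il10 and Tgfb1 differed by 0.31 (SE 0.21 at an adjusted p of 0.388) and -0.16 (SE 0.10 at an adjusted p of 0.381). Leaving out cKO stimulated 3 gave 12 rises, and 7 members were called without WT stimulated 2 and 7 without cKO stimulated 1. Il2 and Csf2 were each called in 8 of the 12 fits with a library left out and lost their calls, for example, without cKO stimulated 1. With the 1 TPM filter 3 of the list were called, or 10 at the reported scaling.

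Cytokine receptor genes moved in both directions, 7 up and 8 down of 29 (against 3.3% and 3.63% of all genes), with a median of -0.17. Among the 27 that did not pass the filter through 1 stimulated group alone, 6 rose and 8 fell. Il12rb2, the IL-12 receptor chain of type 1 helper cells, rose by 1.16 (SE 0.31 at an adjusted p of 0.0482), a call that held in 4 of 12 fits with a library left out and of a gene that passed the filter only through the stimulated cKO group. Il1rl1 (ST2), the IL-33 receptor of tissue Treg, was at 18.1, 14.9 and 18.9 scaled TPM in WT and at 38.8, 34.9 and 25.9 in cKO and rose by 0.89 (SE 0.15 at an adjusted p of 0.00562). Tgfbr3, a TGF-beta co-receptor, rose by 0.80 (SE 0.14 at an adjusted p of 0.00653), and Il2ra, which encodes CD25, by 0.80 (SE 0.15 at an adjusted p of 0.00971), from 112, 124 and 122 in WT to 244, 228 and 164 in cKO. The other chains of the IL-2 receptor, Il2rb and Il2rg, differed by 0.38 (SE 0.13 at an adjusted p of 0.122) and -0.43 (SE 0.14 at an adjusted p of 0.0890). Among those lower in cKO, the IL-1 decoy receptor Il1r2 fell by 0.88 (SE 0.14 at an adjusted p of 0.00399), from 41.4 ± 1.89 to 22.3 ± 4.36 (SD, n = 3 each). Il17ra fell by 0.61 (SE 0.11 at an adjusted p of 0.00802) and Il6ra by 0.61 (SE 0.11 at an adjusted p of 0.00984). Leaving out cKO stimulated 3 left 6 rises and 4 falls, and the 15 calls came to 7 without WT stimulated 2 and to 8 without cKO stimulated 1, with the TPM as deposited none rose and 4 fell, and with the 1 TPM filter none was called, or 11 at the reported scaling.

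Antigen presentation genes took part unevenly. Of 24 class I genes 4 rose, against 3.3% of all genes, the transactivator Nlrc5 by 0.76 (SE 0.15 at an adjusted p of 0.0110), the peptide transporter chains Tap1 and Tap2 by 0.54 (SE 0.11 at an adjusted p of 0.0174) and 0.32 (SE 0.08 at an adjusted p of 0.0474) and the immunoproteasome subunit Psmb10 by 0.50 (SE 0.13 at an adjusted p of 0.0464). The 11 heavy and light chains were not called, with differences of -0.15 to 0.29, and H2-K1 and B2m differed by -0.10 and 0.12. Of 9 class II genes 4 passed the filter, and Cd74, the invariant chain, was at 32.3, 25.7 and 34.02 scaled TPM in WT and at 56.9, 68.3 and 46.2 in cKO and rose by 0.87 (SE 0.15 at an adjusted p of 0.00619), as did H2-Oa by 0.69 (SE 0.18 at an adjusted p of 0.0413). Cd74 and H2-Oa are made at high levels by B cells, and the summed B cell markers are given above. The antiviral membrane protein genes Ifitm2 and Ifitm3, relatives in 1 family, rose by 2.59 (SE 0.14 at an adjusted p of 1.45e-05) and 2.70 (SE 0.27 at an adjusted p of 0.000285). Both were called higher ex vivo too, with a median of 3.15, and no interaction was called for them. The 4 class I calls fell to 3 without cKO stimulated 3, to 2 without WT stimulated 1 or cKO stimulated 2 and to 0 without WT stimulated 2 or cKO stimulated 1 and with only the 6 stimulated libraries. Of the class II calls 1 was left in the fit of those 6 libraries and without WT stimulated 2 or 3 or cKO stimulated 1 or 2. With the 1 TPM filter no class I or class II gene was called, or 2 and 1 at the reported scaling.

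Many genes of naive and central T cells were lower in stimulated cKO Treg. Of 29 members 12 fell and 1 rose, with a median of -0.55, against 3.63% of all genes lower. Tcf7 (ENSMUSG00000000782, mm9 chromosome 11, 52065873 to 52096681), which encodes TCF1, stood at 293, 346 and 319 scaled TPM in WT and at 109.9, 149.9 and 130.1 in cKO and fell by 1.30 (SE 0.13 at an adjusted p of 0.000255). The groups were widely separated. Its relative Lef1 was at 41.5, 46.5 and 46.1 in WT and at 19.6, 18.9 and 21.5 in cKO and fell by 1.12 (SE 0.09 at an adjusted p of 8.50e-05). Among the homing and survival receptors, S1pr1 (ENSMUSG00000045092, mm9 chromosome 3, 115413351 to 115417973), the receptor by which T cells leave lymphoid organs, was at 121, 157 and 124 and 49.5, 62.7 and 53.6 and fell by 1.26 (SE 0.18 at an adjusted p of 0.00202). The costimulatory receptor Cd27 fell by 1.15 (SE 0.12 at an adjusted p of 0.000391), from 143 ± 1.43 to 64.4 ± 10.96 (SD, n = 3 each), and Il7r by 0.53 (SE 0.12 at an adjusted p of 0.0266). Ccr7 was lower in each cKO library, at 269.5, 381 and 271 against 455, 689 and 499 in WT, and missed the threshold, differing by -0.83 (SE 0.23 at an adjusted p of 0.0554). Klf2, the factor that drives S1pr1, likewise differed by -0.53 (SE 0.15 at an adjusted p of 0.0598). The member that rose was the survival gene Bcl2, at 18.6, 18.9 and 18.6 in WT and at 42.9, 39.6 and 31.9 in cKO, by 0.98 (SE 0.12 at an adjusted p of 0.00101). Tcf7 overlaps Gm16953 on its strand. Without cKO stimulated 3 8 members fell and 1 rose, and with the 1 TPM filter 3 fell, or 10 were called at the reported scaling.

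Many genes of effector Treg were higher. Of 25 tested 12 rose, against 3.3% of all genes, and none fell, with a median of 0.54. Ex vivo the 2 lists were shifted as well, with 14 effector genes higher (median 0.58) and 9 naive and central genes lower (median -0.50). Of all 13318 genes 482 were called higher and 222 lower ex vivo, 5.29% together. The difference between conditions was not tested for a list as a whole. Tbx21 (ENSMUSG00000001444, mm9 chromosome 11, 96959385 to 96976645), which encodes T-bet, was at 6.88, 5.78 and 6.79 scaled TPM in WT and at 27.9, 23.6 and 20.5 in cKO and rose by 1.73 (SE 0.12 at an adjusted p of 5.51e-05). The leucine zipper factor Nfil3 was at 36.7, 35.7 and 37.8 in WT and at 105, 120.5 and 74.02 in cKO and rose by 1.39 (SE 0.17 at an adjusted p of 0.000884). Icos, a costimulatory receptor of effector Treg, rose by 0.90 (SE 0.13 at an adjusted p of 0.00212), and Tnfrsf9 (4-1BB), a marker of recent receptor stimulation, by 0.94 (SE 0.16 at an adjusted p of 0.00635). Irf4 and Prdm1, the factors that set up the effector state, rose by 0.51 (SE 0.13 at an adjusted p of 0.0474) and 0.56 (SE 0.13 at an adjusted p of 0.0275), and their calls held in 2 and 7 of the 12 fits with a library left out. Batf and Id2 differed by 0.36 (SE 0.10 at an adjusted p of 0.0578) and 0.28 (SE 0.15 at an adjusted p of 0.289), and Cd44 by 0.07 (SE 0.14 at an adjusted p of 0.791). The count without cKO stimulated 3 was 12, with the 1 TPM filter or the TPM as deposited it was 1, and at the reported scaling it was 10.

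**Figure D4:**
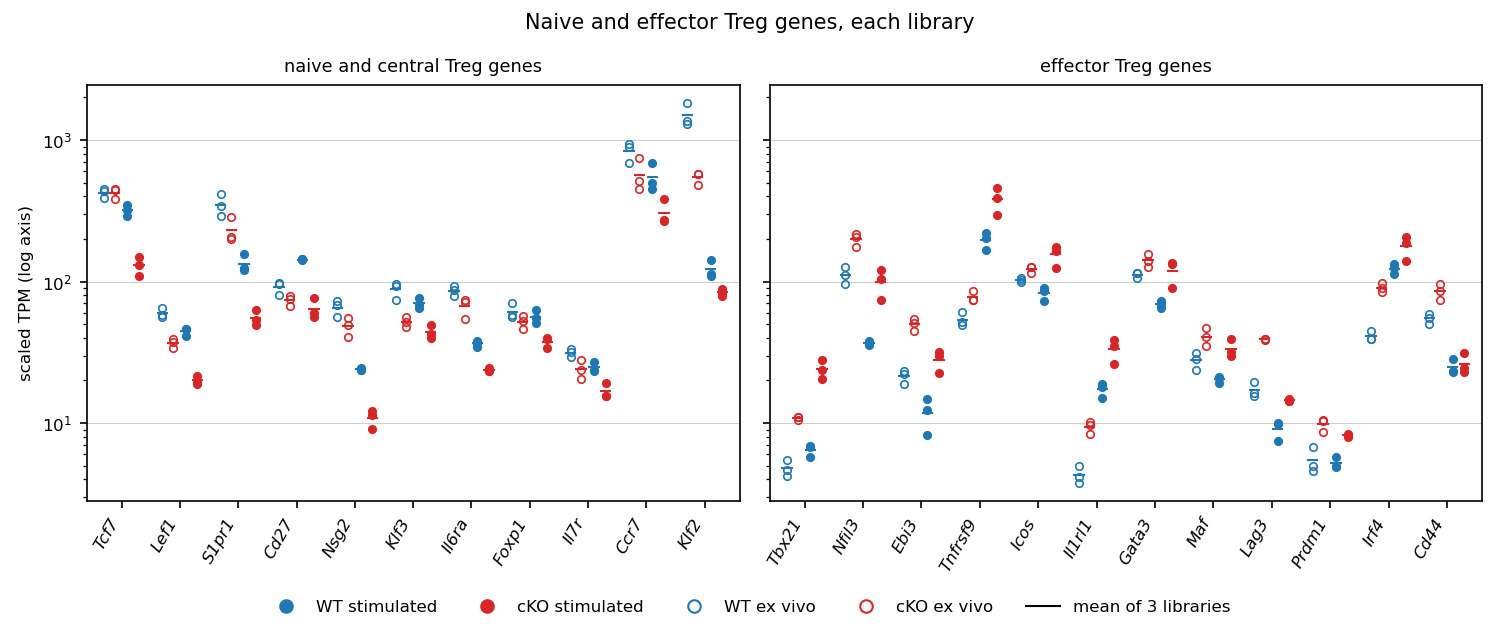
Scaled TPM (log axis) of 11 naive and central and 12 effector Treg genes in each library, stimulated (filled) and ex vivo (open), WT in blue and cKO in red, with bars for means of 3 libraries. Tcf7 in stimulated cKO cells lies at 109.9 to 149.9 scaled TPM, under all stimulated WT libraries, whereas the ex vivo points of both genotypes overlap, and Tbx21 is higher in cKO in both conditions.

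Treg identity genes included 6 that rose and none that fell of 20, against 3.3% of all genes higher and 3.63% lower, with a median of 0.23. The orphan receptor Gpr83 rose by 1.77 (SE 0.17 at an adjusted p of 0.000218) and Rgs1, a regulator of chemokine receptor signalling, by 1.03 (SE 0.18 at an adjusted p of 0.00633). Foxp3, which defines the lineage, was at 107, 88.6 and 123 scaled TPM in WT and at 240.0, 237 and 153 in cKO and rose by 0.96 (SE 0.18 at an adjusted p of 0.00847); cKO stimulated 3 was nearest to WT. Foxp3 overlaps a gene model on its strand. Ctla4 and Tnfrsf18 (GITR) differed by 0.30 (SE 0.12 at an adjusted p of 0.172) and 0.32 (SE 0.15 at an adjusted p of 0.210). Of 18 suppressive effector genes 3 rose, against the same 3.3%, among them the inhibitory receptor Lag3 by 0.62 (SE 0.11 at an adjusted p of 0.00802) and the ectoenzyme Entpd1 (CD39) by 0.65 (SE 0.11 at an adjusted p of 0.00562), while its partner Nt5e (CD73) differed by -0.07 (SE 0.10 at an adjusted p of 0.715). The fit without cKO stimulated 3 had rises in 8 identity genes and 4 suppressive genes. These counts were 1 and 0 with the 1 TPM filter, or 6 and 3 at the reported scaling.

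Of 13 follicular Treg genes tested 3 rose and 1 fell, against 6.93% of all genes called. Bcl6, the factor of follicular cells, stood at 42.3, 60.5 and 46.8 scaled TPM in WT and at 14.7, 24.4 and 17.3 in cKO and fell by 1.38 (SE 0.18 at an adjusted p of 0.00151), and the follicular homing receptor Cxcr5 differed by -0.53 (SE 0.15 at an adjusted p of 0.0593). Maf, Icos and Cd200, which other effector Treg also use, rose, Maf by 0.69 (SE 0.13 at an adjusted p of 0.0121) and Cd200 by 0.55 (SE 0.13 at an adjusted p of 0.0305). The 4 calls came to 2 without WT stimulated 3, and no member was called with the 1 TPM filter, or 3 at the reported scaling.

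Some genes of T cell receptor signalling were lower in cKO. Of 45 genes of receptor and costimulation signalling, all of them tested, 11 fell, against 3.63% of all genes, and none rose, with a median of -0.3. Dgka (ENSMUSG00000025357, mm9 chromosome 10, 128157197 to 128181112), a diacylglycerol kinase that dampens receptor signals, was at 237, 267 and 278 scaled TPM in WT and at 124, 140.5 and 118 in cKO and fell by 1.02 (SE 0.10 at an adjusted p of 0.000257). The adaptor Grap was at 80.9, 91.1 and 90.9 in WT and at 49.3, 51.00 and 49.2 in cKO and fell by 0.80 (SE 0.08 at an adjusted p of 0.000278). Cd5, an inhibitor of receptor signals, and Cd28, the receptor engaged by the stimulating antibody, fell by 0.76 (SE 0.12 at an adjusted p of 0.00329) and 0.68 (SE 0.11 at an adjusted p of 0.00443). The members that fell thus include inhibitors (Dgka, Cd5) as well as activators (Cd28, Lck, Zap70). Lck and Zap70, the first kinases of the cascade, fell by 0.43 (SE 0.10 at an adjusted p of 0.0270) and 0.45 (SE 0.11 at an adjusted p of 0.0367), and Cd3d by 0.61 (SE 0.14 at an adjusted p of 0.0229). Cd3e, Cd3g and Lat differed by -0.25 (SE 0.13 at an adjusted p of 0.280), -0.38 (SE 0.14 at an adjusted p of 0.142) and -0.35 (SE 0.11 at an adjusted p of 0.0827). Cd3d, Cd5, Cd28 and Lck are also among the 7 T cell markers, whose summed level is given above, and the part of a change in cell makeup was not tested. Lck and Zap70 were called in 7 and 5 of the 12 fits with a library left out and lost their calls without cKO stimulated 3, among others. Without cKO stimulated 3 7 members fell and the median was -0.19, the count was also 7 without cKO stimulated 1, WT stimulated 2 or WT stimulated 3, with the TPM as deposited 6 fell, and with the 1 TPM filter none was called, or 9 at the reported scaling.

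Immediate early genes were measured at 4 h. Among 13 EGR, AP-1 and NR4A genes 1 was called, against 6.93% of all genes, and it was Atf3, which rose by 0.77, named after its values were seen. Nr4a1 (NUR77), a direct readout of receptor signal strength, was at 654, 716 and 704 scaled TPM in WT and at 673, 801 and 529 in cKO and differed by -0.07 (SE 0.17 at an adjusted p of 0.834). Egr1, Egr2 and Fos differed by 0.02 (SE 0.25 at an adjusted p of 0.974), 0.01 (SE 0.15 at an adjusted p of 0.965) and 0.09 (SE 0.29 at an adjusted p of 0.881). A missed threshold does not show that these levels are equal. Of 12 surface activation markers 6 rose, led by Sema7a, at 9.92, 10.5 and 11.1 in WT and at 30.00, 31.4 and 18.8 in cKO, by 1.23 (SE 0.18 at an adjusted p of 0.00250), while Cd69 and Tnfrsf4 (OX40) differed by -0.55 (SE 0.20 at an adjusted p of 0.133) and 0.53 (SE 0.17 at an adjusted p of 0.0881). The phosphatase gene Dusp2 fell by 0.58 (SE 0.12 at an adjusted p of 0.0132). Over the 47 immediate early and activation genes 8 rose and 1 fell. The number of calls was 4 without cKO stimulated 1, 5 without WT stimulated 1 or WT stimulated 2 and 11, all higher, without cKO stimulated 3, and none was called with the 1 TPM filter, or 6 at the reported scaling.

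Homing genes moved in both directions. S1pr4 fell by 0.82 (SE 0.11 at an adjusted p of 0.00143) and the integrin chains Itga4 and Itgb7, which pair as the gut homing receptor, by 0.77 (SE 0.11 at an adjusted p of 0.00189) and 0.41 (SE 0.10 at an adjusted p of 0.0271). The skin and lung homing receptor Ccr4 was at 22.1, 12.9 and 20.9 scaled TPM in WT and at 43.1, 39.7 and 32.2 in cKO and rose by 1.03 (SE 0.19 at an adjusted p of 0.00971), Itgb3 by 0.79 (SE 0.13 at an adjusted p of 0.00542) and Itga5 by 0.68 (SE 0.10 at an adjusted p of 0.00311). In all, 3 of 29 rose and 5 fell, S1pr1 among them, against 3.3% and 3.63% of all genes. Among 11 sialyltransferases, which cap the sugars of surface proteins, 3 fell, against the same 3.63%, St8sia6 by 1.57 (SE 0.13 at an adjusted p of 0.000118), St6gal1 by 0.70 (SE 0.09 at an adjusted p of 0.00144) and St8sia1 by 0.51 (SE 0.10 at an adjusted p of 0.0128). The homing counts without cKO stimulated 3 were 5 and 4, and the same number of sialyltransferases fell. With the 1 TPM filter 1 homing gene and 1 sialyltransferase were called, both lower, or 7 and 3 at the reported scaling.

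Of 29 Notch pathway genes 3 rose and 1 fell, against 6.93% of all genes called, and 2 were called without WT stimulated 1, WT stimulated 2 or cKO stimulated 1, with a replicate block and with only the 6 stimulated libraries. Notch2 was at 39.7, 44.5 and 40.5 scaled TPM in WT and at 91.2, 82.2 and 63.5 in cKO and rose by 0.89 (SE 0.15 at an adjusted p of 0.00497). Rbpj, the DNA-binding partner of the cleaved receptor, was at 12.7, 15.7 and 11.9 and 25.3, 25.3 and 20.4 and rose by 0.78 (SE 0.12 at an adjusted p of 0.00343), and the coactivator Maml3 by 0.71 (SE 0.17 at an adjusted p of 0.0337). Lfng, a glycosyltransferase that modifies the receptors, fell by 0.44 (SE 0.11 at an adjusted p of 0.0393). None of the 5 ligands passed the filter, none of the 8 regulators and targets tested was called, Dtx1 among them with 0.39 (SE 0.12 at an adjusted p of 0.0707), and the median of all 29 genes was -0.03, that of all genes tested. Of 25 Wnt and catenin genes 2 rose and 2 fell, against 3.3% and 3.63% of all genes. Wisp1, a Wnt target, was at 5.60, 5.29 and 4.66 in WT and at 29.7, 34.8 and 27.4 in cKO and rose by 2.35 (SE 0.14 at an adjusted p of 3.00e-05), and Ctnnd1, which encodes p120 catenin, rose by 2.29 (SE 0.19 at an adjusted p of 0.000118). Beta-catenin (Ctnnb1) and the target Axin2 differed by -0.29 (SE 0.12 at an adjusted p of 0.181) and 0.28 (SE 0.08 at an adjusted p of 0.0578), and the 2 that fell were Tcf7 and Lef1. With the 1 TPM filter none of the Notch genes and all 4 of the Wnt genes were called, or 2 and 4 at the reported scaling.

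Of 22 survival and death genes 2 were called, against 6.93% of all genes. Bcl2l11, which encodes the pro-apoptotic protein BIM that BCL2 binds, was at 36.7, 43.8 and 35.8 scaled TPM in WT and at 16.4, 19.1 and 19.6 in cKO and fell by 1.03 (SE 0.13 at an adjusted p of 0.00123), with Bcl2 higher as given above. Among the other 20 survival and death genes tested none was called, and Mcl1 differed by 0.05 (SE 0.11 at an adjusted p of 0.828). Of 29 PI3K, AKT and FOXO genes tested 1 rose and 1 fell, against 3.3% and 3.63% of all genes. Among the FOXO factors and their targets Sesn1 fell by 0.98 (SE 0.11 at an adjusted p of 0.000708) and Trib1 rose by 0.80 (SE 0.12 at an adjusted p of 0.00297), and Foxo1 itself differed by -0.50 (SE 0.16 at an adjusted p of 0.0844). Of 14 Polycomb and DNA methylation genes 1 rose and 1 fell, against the same 3.3% and 3.63%. Ezh2, the Polycomb methyltransferase, stood at 12.6, 13.2 and 13.9 in WT and at 38.8, 31.5 and 22.9 in cKO and rose by 1.14 (SE 0.15 at an adjusted p of 0.00153). None of the 13 genes of the NuRD complex, the remodeller that Ikaros recruits, was called, and all were below 0, at -0.47 to -0.02, with Chd4 at -0.47 (SE 0.13 at an adjusted p of 0.0532). Of 59 cell cycle and DNA replication genes 3 rose and 1 fell, against the same 3.3% and 3.63%. The lymphocyte cyclin Ccnd2 rose by 0.67 (SE 0.15 at an adjusted p of 0.0237) and its kinase Cdk6 by 0.65 (SE 0.13 at an adjusted p of 0.0140), whereas none of the 17 mitosis genes was called and Mki67 differed by -0.38 (SE 0.25 at an adjusted p of 0.388). Of the genes named here, Bcl2, Bcl2l11, Sesn1, Trib1 and Ezh2 were called in all 12 fits that left out a library. So was Rb1, a cell cycle gene that fell by 0.50. No other named gene was, and none was called with the 1 TPM filter.

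For the metabolic and growth lists the shares over all genes were 3.3% higher and 3.63% lower. None of 72 nuclear genes of oxidative phosphorylation, 22 heat shock chaperones, 57 replication-dependent histones, 10 Toll-like receptor genes or 8 GIMAP genes was called. Among 84 cytosolic ribosomal protein genes 2 fell, among 65 ribosome biogenesis genes 1 fell and among 19 glycolysis genes 1 rose, the hexokinase Hk2, by 0.54 (SE 0.13 at an adjusted p of 0.0346), a call lost with a replicate block and on leaving out any 1 stimulated library other than cKO stimulated 2. Of 26 cholesterol synthesis and uptake genes 3 fell and none rose. The sterol export genes Abcg1 and Abca1 fell by 0.74 (SE 0.08 at an adjusted p of 0.000391) and 0.44 (SE 0.12 at an adjusted p of 0.0490), and Srebf1 by 0.42 (SE 0.10 at an adjusted p of 0.0336), while no gene of the mevalonate and sterol arms was called. Leaving out any 1 stimulated library brought the ribosomal protein calls to 0 or 1, and leaving out any 1 stimulated WT library or cKO stimulated 1 or fitting only the 6 stimulated libraries brought the sterol calls to 1. The ribosome biogenesis call was lost without WT stimulated 1 or cKO stimulated 3 and with a replicate block. Of 37 ATF4 and unfolded protein response genes 2 rose and none fell. Xbp1, the secretory factor of the unfolded protein response, was at 33.96, 40.1 and 38.8 scaled TPM in WT and at 86.03, 81.5 and 57.4 in cKO and rose by 0.96 (SE 0.16 at an adjusted p of 0.00616), and Hspa5, its chaperone target, differed by -0.18 (SE 0.13 at an adjusted p of 0.423). Of 10 MYC and MAX network genes 1 rose and 1 fell. Myc differed by 0.03 (SE 0.15 at an adjusted p of 0.919), and of its antagonists Mxd1 rose by 0.60 (SE 0.14 at an adjusted p of 0.0268) and Mxd4 fell by 0.61 (SE 0.12 at an adjusted p of 0.0136). The calls of their network came to 0 without WT stimulated 2, WT stimulated 3 or cKO stimulated 1 and to 1 without any other stimulated library or with only the 6 stimulated libraries. Medians of these lists went from -0.41 for 9 mitochondrially encoded genes to 0.17 for the GIMAP genes. Of the 9 mitochondrial genes 1 fell, a call lost with a replicate block. The median was -0.36 for the 8 that did not pass the filter through stimulated WT alone. The mitochondrial share of reads was 1.58 to 1.91% in WT and 1.06 to 1.47% in cKO (exact two-sided permutation p 0.1, the smallest that 3 against 3 libraries allow).

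Whether the genotype difference differs between stimulated and ex vivo cells was tested with an interaction term over all 12 libraries. No library is of cells cultured without the antibodies, so stimulation and the 4 h in culture cannot be told apart. The interaction is the difference after stimulation minus the difference ex vivo. It was called for 147 of the 13318 genes (1.1%), 60 above 0 and 87 below. Ex vivo 704 genes were called (5.29%), and 236 of them had the same call after stimulation, which is 25.6% of the stimulated and 33.5% of the ex vivo calls. A further 14 genes were called in both conditions in opposite directions. Among the GTPase families 4 of 9 GBPs and 6 of 9 IRGs were called, all above 0 except Irgq. Gbp2 was at 33.00, 33.4 and 43.9 scaled TPM in WT and at 35.5, 36.3 and 37.3 in cKO ex vivo, where it differed by 0.00 (adjusted p 0.998), and the interaction was 2.00 (SE 0.30, adjusted p 0.0137). Igtp was at 61.9, 66.02 and 69.6 and 55.8, 65.9 and 57.4 ex vivo, with an interaction of 1.53 (SE 0.23, adjusted p 0.0132). The ex vivo values of both genes lay close together, and the stimulated values were apart.

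Other list members show the same or the opposite course. Socs1 was at 68.5, 66.8 and 98.5 in WT and at 94.1, 71.5 and 89.4 in cKO ex vivo, and its interaction was 2.04 (SE 0.31, adjusted p 0.0137). Tcf7 was at 435, 391 and 448 in WT and at 451, 382 and 441 in cKO ex vivo, a difference of 0.00, and its interaction was -1.30 (SE 0.18, adjusted p 0.0122). For Ifng the ex vivo difference was already 1.60 (adjusted p 0.00616), and the interaction of 0.93 was not called (adjusted p 0.282). Tbx21 and Lef1, called in both conditions, had interactions of 0.69 and -0.43, neither called. No interaction was called with the 1 TPM filter, under which 2405 genes had an unadjusted p under 0.05 in limma, and 74 were at the reported scaling. Leaving out single libraries gave 56 (without cKO stimulated 1) to 208 calls (without cKO stimulated 2).

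**Figure D5:**
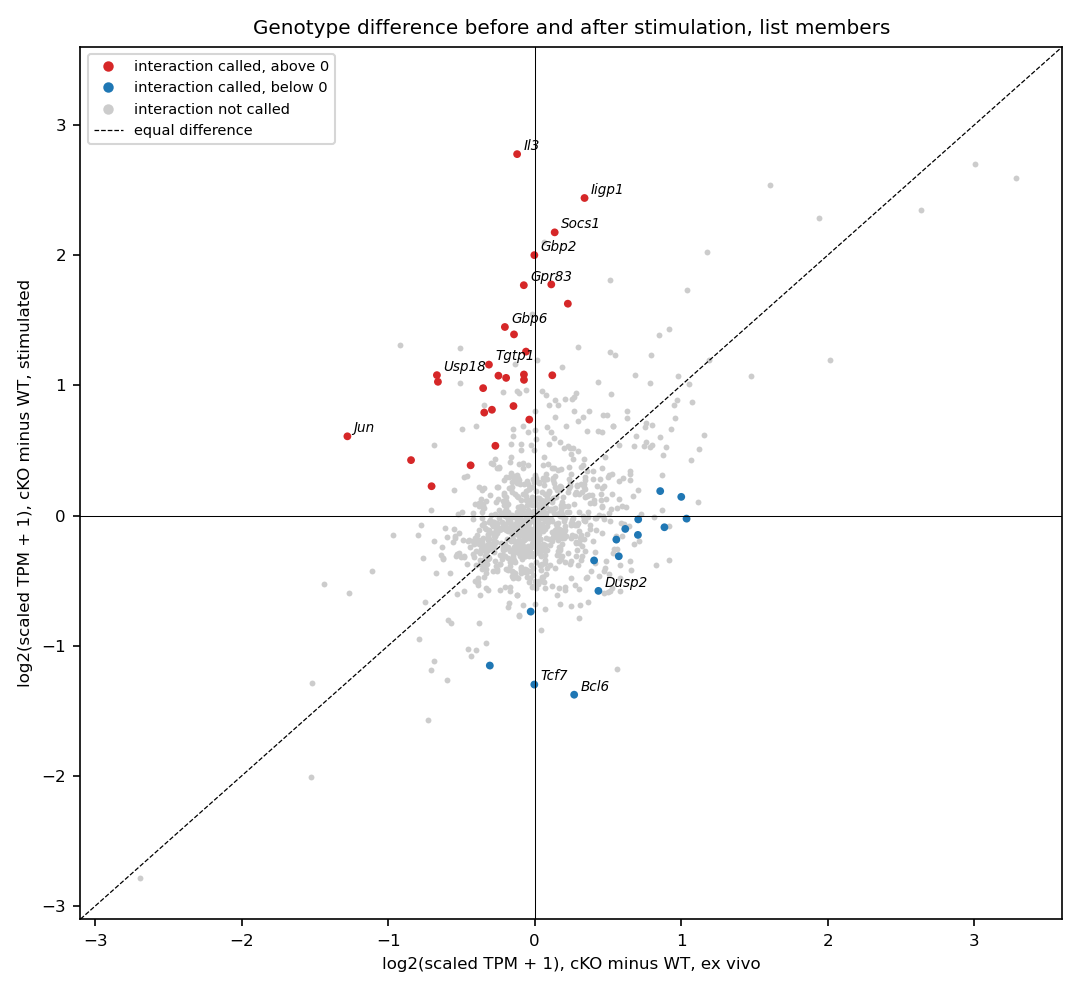
Difference between cKO and WT ex vivo (x axis) and after stimulation (y axis), both as log2 of scaled TPM + 1, for the 1010 list members tested; red and blue mark genes whose interaction was called above and below 0, and the dashed line is an equal difference in both conditions. Gbp2 lies at 2 and Iigp1, Socs1 and Il3 above 2 after stimulation, against -0.12 to 0.34 ex vivo, and Tcf7 (-1.3) and Bcl6 (-1.38) are low after stimulation only.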

How the data were processed

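RNA of 12 Treg samples, in 4 groups of 3, was sequenced by the authors as strand-specific, rRNA-depleted paired-end libraries. Per the labels and the study's methods, reads were aligned with STAR 2.6.0c to mm9 and counted over Ensembl exons with HTSeq 0.6.1 (union mode, reverse strand), which leaves out reads that overlap 2 genes on the same strand, and rRNA genes were removed. The deposited expression table holds each library's signal as TPM per gene (36222 genes, summing to 1000000), and a log2 form of the same TPM computed by the authors, which was not tested. A second deposited table of the authors' own comparisons (fold changes, F statistics, p-values and FDR for 6 contrasts) was not used.

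Genes were kept if any of the 4 groups averaged 5 TPM or more, and TPM were divided by a trimmed-mean factor for each library set on these genes (trim 30% of differences, 5% of levels), giving scaled TPM. limma 3.58.1 in R 4.3.3 fitted the 4 groups over all 12 libraries to log2(scaled TPM + 1) with trended variances, and p-values were adjusted over all genes (Benjamini-Hochberg, threshold 0.05). The pseudocount lowers the fold change of low genes. Whole reads were recovered from the TPM for 99.9993% of values (within 0.1 read) and give the reads printed. On simulated data for the stimulated comparison (13318 genes), 44 of 50 genes raised and 44 of 50 lowered by 2 on the log2 scale were called, 30 and 29 of 50 at 1, and 9 of 13118 unchanged genes. The simulated noise was independent, with the same spread in all groups for a gene and no outlying library. It therefore does not measure the false calls in the real libraries. The 40 gene lists (1165 genes, 1010 tested) and the members were chosen with earlier results of these data known. Named are Ikzf1, defining members marked in each list, and up to 4 called members with the largest rise and 4 with the largest fall per list, and others are said to be chosen after their values were seen. The labels name 3 biological replicates, and 3 against 3 libraries cannot give an exact permutation p under 0.1. Some list members are counted in their lists but not reported here by name. Alternatives covered the filter, scaling, pseudocount, model and each library left out.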

Additional observations from a re-analysis of the deposited data

Results flagged for a closer look

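The interaction of genotype and stimulation passed the threshold in 43 of the 1010 list members tested (limma, adjusted p 0.0122 to 0.0494). The members were picked out for that reason, from lists chosen with earlier results of these data known. Over all 13318 genes the interaction was called for 147 (1.1%), and for 0 genes with the 1 TPM filter. The interaction is the cKO minus WT difference after stimulation minus the same difference ex vivo, on the log2(scaled TPM + 1) scale, and was above 0 in 28 genes and below 0 in 15. The values of 42 of them follow. Among the GTPase families the values above 0 were Iigp1 2.10, Gbp2 2.00, Gm12250 1.66, Gbp6 1.65, Igtp 1.53, Tgtp1 1.47, Gbp5 1.40, Gbp10 1.32 and Tgtp2 1.10. Among other interferon-stimulated genes and feedback inhibitors they were Socs1 2.04, Usp18 1.75, Mov10 1.32, Zbp1 1.25, Rtp4 1.12, Dtx3l 0.99, Parp14 0.96, Slfn8 0.82, Ifi203 0.80 and Parp9 0.77. Among cytokine, activation, survival and surface genes they were Il3 2.90, of a gene that passed the filter only through the stimulated cKO group, Jun 1.89, Gpr83 1.84, Rgs1 1.69, Bcl2 1.33, Treml2 1.27, Lta 1.16, Itgb3 1.14 and Pik3r5 0.93. Below 0, the transcription and survival genes were Bcl6 -1.65, Tcf7 -1.30, Nfkbia -0.98 and Relb -0.89. Other values below 0 were Dusp2 -1.01, Cxcr3 -0.86, Itgb1 -0.85, Cd27 -0.85, Socs5 -0.75, Slc38a1 -0.74, Irgq -0.74, S1pr2 -0.72, Abcg1 -0.71 and Klrg1 -0.67. Not all these genes were called after stimulation. Jun, Slfn8, Treml2 and Pik3r5 were called between genotypes ex vivo only, where they were lower in cKO. Nfkbia, Relb, Cxcr3, Itgb1, Slc38a1, Irgq, S1pr2 and Klrg1 were also called ex vivo only, where they were higher in cKO. With 3 libraries a group, single values were not tested for an outlying library.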

How the results depend on the processing

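After stimulation 923 genes were called, 68 with a filter of 1 TPM, 68 with none, 306 with the TPM as deposited, 1579 after quantile normalization and 552 with only the 6 stimulated libraries, and leaving out 1 library gave 424 to 990. Ex vivo the 704 calls became 57 with a filter of 1 TPM, 56 with none, 273 with the TPM as deposited and 1203 with voom on recovered reads, and 331 to 740 with a library left out. The 147 interactions became 0 with a filter of 1 TPM and with none (limma, 2405 and 2686 genes at an unadjusted p under 0.05), 67 with the TPM as deposited, 337 with a filter of 10 TPM, 392 after quantile normalization, 395 with voom on recovered reads and 247 with the background subtracted, an alternative chosen after seeing the data, and 56 to 208 with a library left out. Called list members numbered 18 and 17 with a filter of 1 TPM and none, 57 with the TPM as deposited, 259 after quantile normalization and 104 to 167 with a library left out. The lower filters tested more genes and also reset the scaling, and the median difference of the 13318 genes after stimulation went from -0.03 to -0.31 with the 1 TPM filter, -0.30 with none and -0.30 with the TPM as deposited. With the 1 TPM filter and the scaling as reported, an alternative chosen after seeing the data, 600 genes were called after stimulation, 390 ex vivo, 74 interactions and 130 list members. The cause of the other shifts was not tested. Same-numbered stimulated WT and cKO libraries had deviation correlations of 0.0035, 0.037 and -0.069, ex vivo WT and cKO libraries of 0.15, 0.26 and 0.078, stimulated and ex vivo WT libraries of -0.067, 0.00091 and 0.041 and stimulated and ex vivo cKO libraries of 0.057, -0.21 and -0.062. The samples were therefore treated as unpaired. Whether same-numbered stimulated and ex vivo cells came from 1 mouse is not given in the sources used here. Fitting the replicate number as a block gave 630 calls after stimulation, 516 ex vivo and 65 interactions. The lowest genes rest on few reads, such as Il2 with 18, 7 and 21 reads in WT.
A change of sign was seen for 19 genes named in the report, none of them called. The 1 TPM filter, no filter and the TPM as deposited shift all genes downward, as the median given above shows, and a change of sign under them says nothing of a single gene. The difference with a filter of 1 TPM was -0.19 for B2m, -0.23 for Cd44, -0.011 for Ctla4, -0.29 for Egr1, -0.29 for Egr2, -0.22 for Fos, -0.29 for Gbp9, -0.015 for Id2, -0.051 for Irf9, -0.26 for Mcl1 and -0.27 for Myc. The difference with no filter was -0.18 for B2m, -0.22 for Cd44, -0.0072 for Ctla4, -0.28 for Egr1, -0.28 for Egr2, -0.21 for Fos, -0.29 for Gbp9, -0.011 for Id2, -0.048 for Irf9, -0.25 for Mcl1 and -0.27 for Myc. The difference with the TPM as deposited was -0.17 for B2m, -0.21 for Cd44, -0.27 for Egr1, -0.27 for Egr2, -0.20 for Fos, -0.28 for Gbp9, -6.8e-05 for Id2, -0.038 for Irf9, -0.24 for Mcl1 and -0.26 for Myc. The difference with a filter of 10 TPM was 0.016 for H2-K1, 0.019 for Ifnar2, 0.078 for Irgq, 0.050 for Nr4a1 and 0.053 for Nt5e. The difference after quantile normalization was 0.079 for H2-K1, 0.031 for Hspa5, 0.033 for Ifngr1, 0.084 for Nr4a1, 0.18 for Nt5e and 0.052 for Tgfb1. The difference with voom on recovered reads was -0.0016 for Gbp9. With a library left out it ran from -0.058 to 0.19 for Cd44, -0.085 to 0.23 for Egr1, -0.075 to 0.21 for Egr2, -0.084 to 0.22 for Fos, -0.064 to 0.064 for Gbp9, -0.21 to 0.026 for H2-K1, -0.084 to 0.031 for Irgq, -0.022 to 0.17 for Myc, -0.21 to 0.12 for Nr4a1 and -0.15 to 0.0044 for Nt5e.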

Other observations

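Some receptor gene segments, looked at after their values were seen, were lower in stimulated cKO cells. Of 184 T cell receptor and immunoglobulin segments, counted together, 19 fell (10.3%) and none rose, with a median of -0.40, against 3.63% of all genes lower. Of 21 Trbv segments 7 fell, with a median of -0.57, of 14 Trbj segments 3 fell (-0.69), of 56 Traj segments 5 fell (-0.52) and of 46 Trav segments 1 fell (-0.28). Ex vivo the same medians were -0.22, -0.11, 0.31 and -0.09. Segments are short and their reads can be divided between near-identical copies. Counts without cKO stimulated 3 are not given for them.

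Of 1784 short noncoding RNAs 46 were higher (2.58%, against 3.3% of all genes) and 15 lower (0.841%, against 3.63%), with a median of 0.35, and protein-coding genes had a median of -0.06, with 369 of 9792 higher and 428 lower. The level of silent receptor genes was highest in cKO stimulated 3, and its part in these medians was not tested.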
